A study of Mus musculus with 3 samples.

Results

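The circadian clock genes described here are Per1, Per2, Per3, Cry1, Cry2, Nr1d1, Nr1d2, Dbp, Tef and Clock. They were taken by symbol from the gene list of the count matrices, and all 10 were found among 19059 genes. The level of each was followed over the cell types of blood and over the samples. The samples are 3 libraries of peripheral blood leukocytes from untreated male mice aged 8, 9 and 10 weeks, with 1 library at each age, here called replicates 1, 2 and 3. They form 1 group, so no treatment, age or genotype was compared. The title of the series concerns splenic macrophages after myocardial infarction, and these blood samples come from naive animals. The sources used here give neither the hour of blood collection nor the light cycle, so each level is a reading at an unknown phase of the daily cycle.

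The molecular clock of mammalian cells is a feedback loop. CLOCK pairs with BMAL1, the product of Arntl, and this dimer binds E-box sequences and drives transcription of the Per and Cry genes, whose proteins return to the nucleus and repress the dimer. In a second loop the nuclear receptors encoded by Nr1d1 and Nr1d2 (REV-ERBα and REV-ERBβ) repress Arntl through elements that the ROR receptors activate, and Dbp and Tef encode PAR bZIP factors that drive genes through D-boxes. In mice, blood leukocytes are known to vary in number over the day, and neutrophils and monocytes carry clocks of their own.

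In the GENCODE vM21 annotation of GRCm38, matched by symbol, the period genes are Per1 at chr11:69095217-69109960 (plus strand), Per2 at chr1:91415982-91459324 (minus strand) and Per3 at chr4:151003652-151044665 (minus strand). The cryptochromes are Cry1 at chr10:85131700-85185064 (minus strand) and Cry2 at chr2:92403646-92434043 (minus strand), and the nuclear receptors Nr1d1 at chr11:98767932-98775333 (minus strand) and Nr1d2 at chr14:18204054-18239127 (minus strand). The other members are Dbp at chr7:45705088-45710203 (plus strand), Tef at chr15:81802421-81826863 (plus strand) and Clock at chr5:76209868-76304792 (minus strand). These spans describe where the genes lie, and the sources used here do not give the build behind the counts.

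The promoters below are shown because E-box and D-box letters are known as the kinds of site through which members act on each other. Of the 10 members, 9 have an entry in the RefSeq promoter table (build GRCm38.p6), and Per2 has none. The window read for each gene runs from 250 to 11 bases before its annotated start, and where a gene has several starts the most upstream one whose window holds no annotated exon was taken. Capitals mark an E-box (CACGTG), an E-prime box (CACGTT or its reverse AACGTG) or a D-box (TTATGTAA, its reverse TTACATAA, or TTACGTAA), searched on both strands.
Per1, chr11:69098699-69098938, plus strand: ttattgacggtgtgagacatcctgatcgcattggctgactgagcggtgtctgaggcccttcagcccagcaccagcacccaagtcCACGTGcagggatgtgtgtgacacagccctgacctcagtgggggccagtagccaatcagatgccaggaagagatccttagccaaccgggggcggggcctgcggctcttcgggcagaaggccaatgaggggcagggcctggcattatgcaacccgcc
Cry1, chr10:85185065-85185304, minus strand: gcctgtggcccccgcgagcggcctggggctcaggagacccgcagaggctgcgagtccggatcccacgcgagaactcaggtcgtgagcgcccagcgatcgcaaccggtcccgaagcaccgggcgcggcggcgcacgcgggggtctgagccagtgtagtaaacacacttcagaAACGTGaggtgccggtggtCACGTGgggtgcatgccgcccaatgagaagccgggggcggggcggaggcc
Tef, chr15:81811164-81811403, plus strand: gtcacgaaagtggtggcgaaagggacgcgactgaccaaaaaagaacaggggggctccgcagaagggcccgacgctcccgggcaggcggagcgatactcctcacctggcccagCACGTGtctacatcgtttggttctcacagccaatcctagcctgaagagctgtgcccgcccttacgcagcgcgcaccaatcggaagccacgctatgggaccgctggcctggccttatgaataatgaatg
Per3, chr4:151044676-151044915, minus strand: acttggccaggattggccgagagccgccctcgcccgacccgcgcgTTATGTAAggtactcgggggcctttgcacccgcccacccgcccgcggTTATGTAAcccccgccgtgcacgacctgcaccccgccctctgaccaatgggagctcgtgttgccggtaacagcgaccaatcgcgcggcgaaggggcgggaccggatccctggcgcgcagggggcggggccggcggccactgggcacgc

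For Per1 and Tef the start used is an internal one: both windows lie inside the annotated span of the gene, outside its exons and downstream of its first base. The E-box of Per1 starts 166 bases before that internal start, and that of Tef 138 bases before its own. Cry1 holds an E-prime box at 79 bases and an E-box at 60 bases before its start, and Per3 holds D-boxes at 205 and 158 bases. None of these matches overlapped another. Among the others, Cry2 has an E-prime box at 166 bases and Nr1d1 one at 28 bases, while Nr1d2, Dbp and Clock had none of the letters in this window. The windows of Nr1d2 and Dbp reach into an annotated exon and are not printed. An E-box was thus found in 3 of the 9 members and an E-prime box in 3, against 5.69% and 3.7% of all 32851 promoters of the table in the same 240-base window. A D-box was in 1 of 9, against 0.913% of all promoters, and the ROR element letters TAGGTCA or TGACCTA were in 0 of 9, against 2.15%. A match is a string of letters and says nothing of whether a factor was bound in these cells.

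Each cell was assigned to a type from its raw counts of marker genes, none of which is a clock gene. A type was called where its marker list had at least 3 unique molecular identifiers (UMIs, each a counted molecule) from at least 2 genes and at least 4 times the sum of every other leukocyte list. CD4 T cells held Cd4 and no Cd8a or Cd8b1 UMI, and CD8 T cells the reverse. Monocyte subtypes needed at least 2 UMIs of their own sub-list and 4 times the other. Platelets needed at least 10 UMIs from at least 3 genes and under 3 of every leukocyte list. These rules named 92.3%, 83.6% and 90.04% of the 11105, 5736 and 7029 barcodes of replicates 1, 2 and 3. The named cells include 739 T cells and 99 monocytes without a subtype, which entered no level. The 3 libraries together held 9883 B cells, 2438 CD4 T cells, 3034 CD8 T cells, 894 natural killer (NK) cells, 2661 neutrophils, 671 Ly6c-low and 578 Ly6c-high monocytes, and 282 platelets. Ly6c-high monocytes are the classical and Ly6c-low monocytes the patrolling subset of mouse blood. Markers kept out of the calling were highest where their type was called, but they were not equally clean. S100a8 and S100a9 were at most 0.345% and 0.382% of their neutrophil level in any other type. Ighd and Prf1 reached at most 1.9% and 5.25% of their B and NK levels. Of the lowest level in their own types, Ighm reached 10.6% in CD4 T cells, and Trbc2 and Ms4a6c 12.2% and 13.1% in NK cells. Nkg7 reached 22.9% in CD8 T cells, Lyz2 25.8% in neutrophils and Lat 29.2% in platelets. Library totals were 45718031, 19591648 and 23443660 UMIs. Red cell transcripts stood apart in replicate 2, at 30178 CPM (UMIs scaled to the same total in every library) in B cells, against 1364 in replicate 1 and 6649 in replicate 3, and their part in the results was not tested. Replicates 1 and 2 share 83 barcodes, replicates 1 and 3 share 101 and replicates 2 and 3 share 48, and no shared barcode had the same UMI total in both.

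UMIs were summed per sample and cell type, and the level of a gene is given in CPM after scaling by TMM, the trimmed mean of M-values, unless plain CPM is named. TMM assumes that most genes do not differ between types. Its factors were 0.545 to 0.589 for neutrophils and 1.22 to 1.36 for the lymphoid types, so neutrophil values are higher by this scale than by plain library totals, and both are given where it matters. Levels of different genes are not compared, since each gene is read by its own probes. Values are mean ± SD over the 3 libraries. Nothing in the labels says whether each library is a different animal, and p-values here measure the spread between these samples, which may be technical. Every pair of leukocyte types was compared, 21 pairs in all, with edgeR's quasi-likelihood test and Benjamini-Hochberg adjustment over all genes. The members were called (adjusted p below 0.05) in 134 of 210 tests, beside 63.1% of such tests over all genes. On the genome, 3 members overlap another counted gene (Nr1d1 with Thra and Dbp with Sphk2 on opposite strands, Per3 with Camta1 on the same strand), and whether their probes lie in the shared stretch is not known here.

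**Figure D1:**
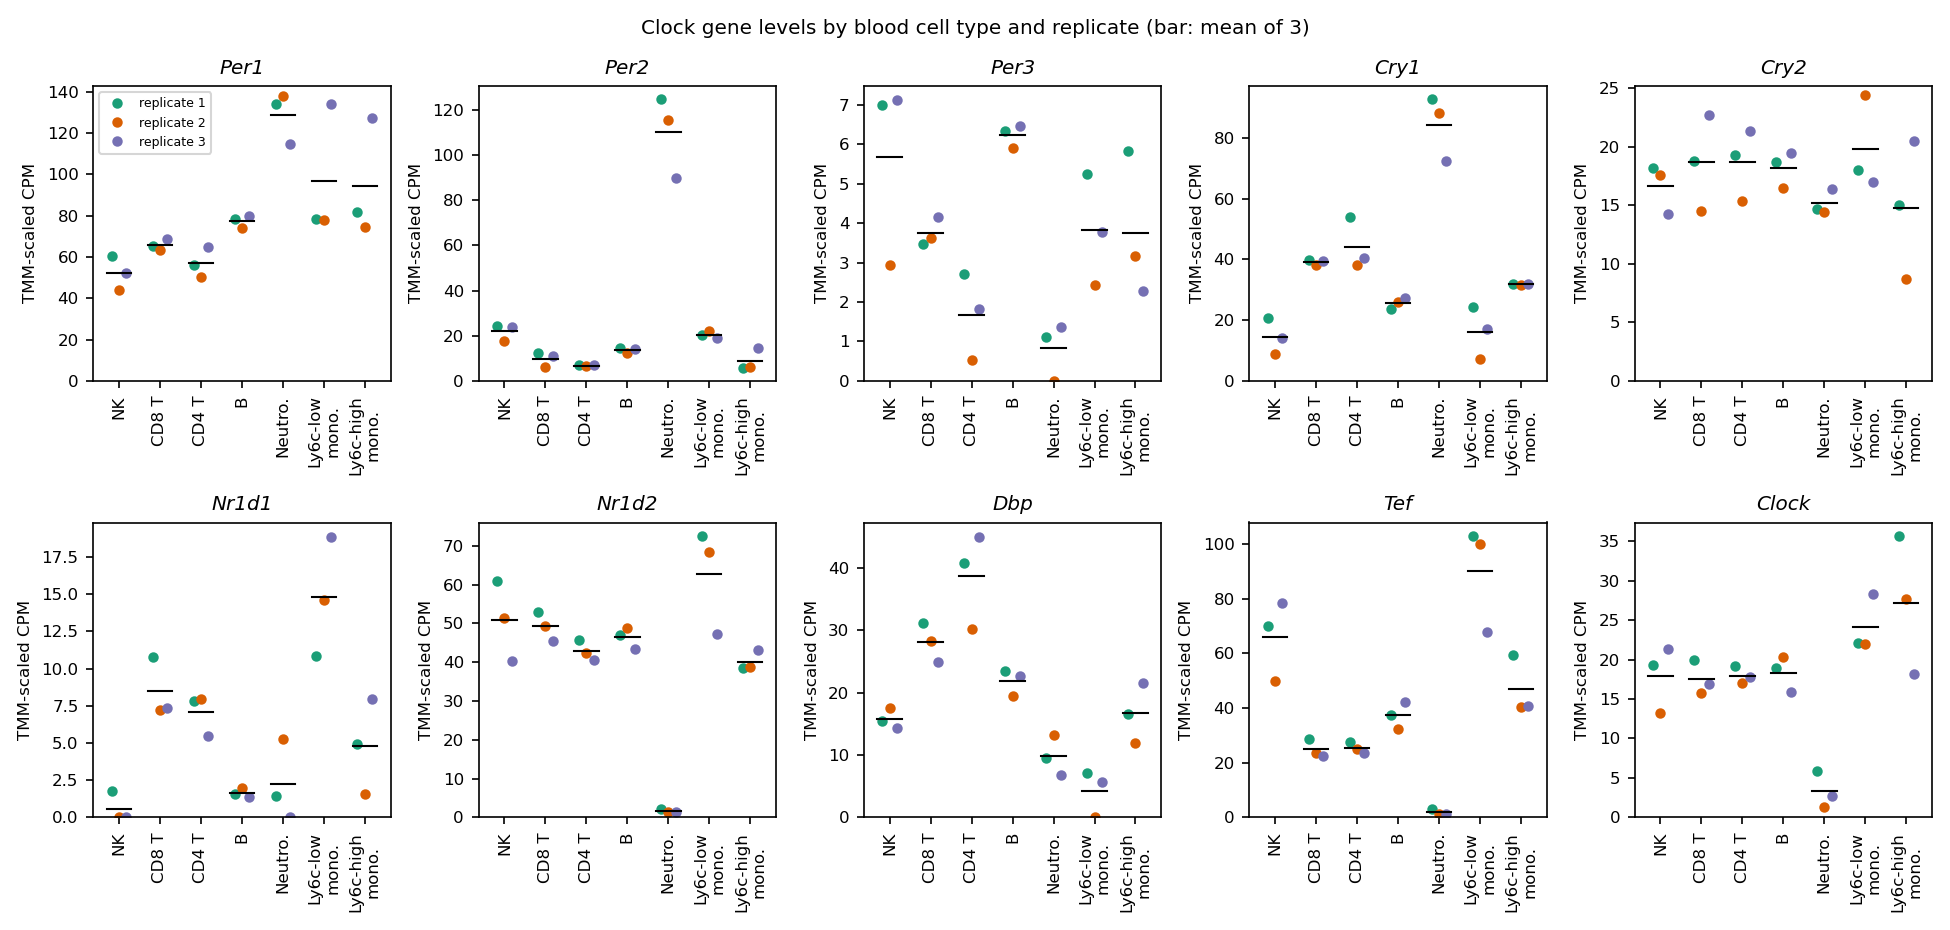
TMM-scaled CPM (y axes, from 0, a scale of its own for each gene) of the 10 clock genes in 7 leukocyte types, with 1 point per replicate and a bar at the mean of 3. Per2 and Cry1 are highest in neutrophils on this scale, where Nr1d2, Tef and Clock are lowest, and the means of Cry2 lie between 14.7 and 19.8 CPM in every type.

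Of the activators, Clock was read at 17.6 to 27.2 CPM in the 6 leukocyte types other than neutrophils, and at 3.30 ± 2.33 CPM in neutrophils. The highest level was 27.2 ± 8.74 CPM in Ly6c-high monocytes (35.7, 27.6 and 18.2 CPM in replicates 1 to 3), followed by 24.1 ± 3.62 CPM in Ly6c-low monocytes. B, CD4 T, NK and CD8 T cells lay between 17.6 and 18.3 CPM, and no neighbours in the order of levels differed except the lowest pair. CD8 T cells exceeded neutrophils there by 2.05 on the log2 scale (adjusted p = 3.36e-08). The neutrophil value rests on 16, 1 and 2 UMIs.

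Arntl, the partner of Clock, had the same place at the bottom. It stood at 0.944 ± 0.819 CPM in neutrophils (4, 0 and 1 UMIs), and at 8.46 to 23.1 CPM elsewhere. B cells had the highest level, 23.1 ± 0.631 CPM, and exceeded CD4 T cells by 0.35 (log2, adjusted p = 0.0264). Npas2, which can replace Clock in the dimer, had 15 UMIs in CD4 T cells, 7 in CD8 T cells and 1 in B cells over the 3 libraries and none in the other types. It was too low to be tested.

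Among the repressors, Per1 responds to light-driven, hormonal and stress signals as well as to the clock, and it was the member whose order depended most on the scaling. In neutrophils it read 134, 138 and 115 CPM in replicates 1 to 3 (mean 129 ± 12.5). Ly6c-low monocytes had 78.4, 78.1 and 134 CPM, and Ly6c-high monocytes 81.7, 74.2 and 127 CPM. Replicate 3 was thus far above the other libraries in both monocyte types, while in neutrophils it was the lowest. B cells followed at 77.3 ± 3.03 CPM, then CD8 T cells at 65.8 ± 2.83, CD4 T cells at 57.0 ± 7.1 and NK cells at 52.1 ± 8.11. Neutrophils differed from the next type by 0.58 (log2, adjusted p = 0.000435), and B cells from CD8 T cells by 0.23 (adjusted p = 0.0158), while the other 4 neighbours did not differ beyond their spread. By plain CPM neutrophils had 73.0 ± 5.48, below the 101 to 102 of both monocyte types and the 95.9 ± 5.18 of B cells. CD8 T cells (88.0 ± 4.81) and CD4 T cells (76.9 ± 10.3) were also above neutrophils by plain CPM, and only NK cells (66.4) were lower. The levels of Per1 are therefore ordered differently by the plain scale.

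Per2, whose product represses together with the CRY proteins, had the widest gap at the top. Neutrophils held 125, 116 and 90.02 CPM in replicates 1 to 3 (mean 110 ± 18). NK cells came next at 24.5, 17.6 and 23.7 CPM, and CD4 T cells were lowest at 6.94, 6.37 and 6.82 CPM. No neutrophil value overlapped any value of another type. The excess of neutrophils over NK cells was 2.33 ± 0.19 (log2, SE, adjusted p = 2.23e-16) and that over CD4 T cells was 4.08 ± 0.18 (adjusted p = 4.78e-27). By plain CPM the neutrophil mean was 62.3 ± 8.08 and the NK mean 28.0 ± 5.29, so that neutrophils led on both scales. Between these extremes stood Ly6c-low monocytes at 20.4 ± 1.54 CPM, B cells at 13.6 ± 1.16, CD8 T cells at 9.64 ± 3.28 and Ly6c-high monocytes at 8.98 ± 5.02.

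Per3, a period gene that is dispensable for rhythms in mice, was read at low levels everywhere. B cells had 6.35, 5.91 and 6.46 CPM from 264 UMIs in all. NK cells stood at 5.69 ± 2.38 CPM, Ly6c-low monocytes at 3.82 ± 1.41, Ly6c-high monocytes at 3.76 ± 1.86, CD8 T cells at 3.75 ± 0.359 and CD4 T cells at 1.68 ± 1.09. Neutrophils held 3, 0 and 1 UMIs, a mean of 0.822 ± 0.723 CPM. None of the 6 neighbours in this order differed, though B cells exceeded neutrophils by 2.77 (log2, adjusted p = 2.24e-05), and 9 of the 21 pairs of types were called.

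Cry1, one of the cryptochrome repressors, also peaked in neutrophils on the TMM scale. The 3 libraries gave 92.8, 88.1 and 72.3 CPM there, against 54.0, 38.2 and 40.5 CPM in CD4 T cells, the next type. The groups did not overlap, and the difference was 0.89 ± 0.14 (log2, SE, adjusted p = 9.42e-08). CD8 T cells followed at 39.1 ± 0.915 CPM, Ly6c-high monocytes at 31.8 ± 0.185, B cells at 25.7 ± 1.92, Ly6c-low monocytes at 16.2 ± 8.56 and NK cells at 14.6 ± 5.94. None of these lower neighbours differed from the next. By plain CPM neutrophils had 47.8 ± 4.49, below the 59.5 ± 11.1 of CD4 T cells and the 52.4 ± 1.65 of CD8 T cells, so neutrophils were not first by plain CPM. NK cells were the lowest of the lymphoid types on both scales.

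Cry2, the other cryptochrome, was the flattest member on the TMM scale. Its means ran from 14.7 ± 5.89 CPM in Ly6c-high monocytes to 19.8 ± 4.01 CPM in Ly6c-low monocytes. No pair of the 21 was called, and the test for any difference among the 7 types gave an adjusted p of 0.414 in edgeR (unadjusted p = 0.411), where 97.3% of the 10420 genes tested were called. The other 9 members were called in that test. By plain CPM the neutrophil mean of Cry2 was 8.62 ± 0.890, and the other types lay between 15.8 and 25.2, so by plain CPM its levels were less even.

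The nuclear receptor genes parted from each other. Nr1d1 was highest in Ly6c-low monocytes, with 10.9, 14.6 and 18.9 CPM in replicates 1 to 3. CD8 T cells had 8.46 ± 2.02 CPM and CD4 T cells 7.09 ± 1.41. B cells held 1.61 ± 0.305 CPM, and NK cells 5, 0 and 0 UMIs, or 0.584 ± 1.01 CPM. T cells thus stood above B and NK cells without overlap. Ly6c-high monocytes and neutrophils lay between, at 4.82 ± 3.19 and 2.24 ± 2.71 CPM. No neighbours in the order differed, but 13 of 21 pairs did, and Ly6c-low monocytes exceeded NK cells by 3.36 ± 0.64 (log2, SE, adjusted p = 9.60e-06).

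Nr1d2 was present at 40.1 to 62.6 CPM in 6 leukocyte types and at a few UMIs in neutrophils. Ly6c-low monocytes had 72.4, 68.3 and 47.2 CPM, and B cells 47.0, 48.8 and 43.4 CPM. Neutrophils had 2.20, 1.31 and 1.36 CPM, which are 6, 1 and 1 UMIs. Pooled over libraries these 8 UMIs make 1.06 plain CPM, with an exact 95% Poisson interval of 0.456 to 2.08 that covers counting error only. Ly6c-high monocytes, the next type, exceeded neutrophils by 4.37 ± 0.32 (log2, SE, adjusted p = 8.44e-18). The 5 neighbours above that did not differ.

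The output genes Dbp and Tef differed in where they were high, although both encode factors of the same family. Dbp was highest in CD4 T cells, at 40.7, 30.3 and 45.0 CPM in replicates 1 to 3. CD8 T cells followed at 28.1 ± 3.13 CPM, B cells at 21.9 ± 2.16, Ly6c-high monocytes at 16.7 ± 4.87, NK cells at 15.8 ± 1.70 and neutrophils at 9.84 ± 3.17. Ly6c-low monocytes were lowest, with 19, 0 and 3 UMIs, or 4.26 ± 3.77 CPM. Dbp had a graded order, in which 4 of 6 neighbours differed, from CD4 over CD8 T cells (0.44 on the log2 scale, adjusted p = 0.0113) to NK cells over neutrophils (0.68, adjusted p = 0.0461). In all, 19 of the 21 pairs were called.

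Tef was highest in Ly6c-low monocytes, the type where Dbp was lowest. Those monocytes had 103, 100 and 68.0 CPM, and NK cells 70.0, 49.9 and 78.4 CPM. Ly6c-high monocytes stood at 46.8 ± 10.8 CPM, B cells at 37.3 ± 4.84, CD4 T cells at 25.4 ± 1.96 and CD8 T cells at 24.9 ± 3.24. Neutrophils had 1.87 ± 0.921 CPM, from 8, 1 and 1 UMIs. Each neighbour differed from the next except CD4 and CD8 T cells, and 20 of the 21 pairs were called, the highest count of any member. The distance from Ly6c-low monocytes to neutrophils was 5.31 ± 0.29 (log2, SE, adjusted p = 1.57e-22).

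**Figure D2:**
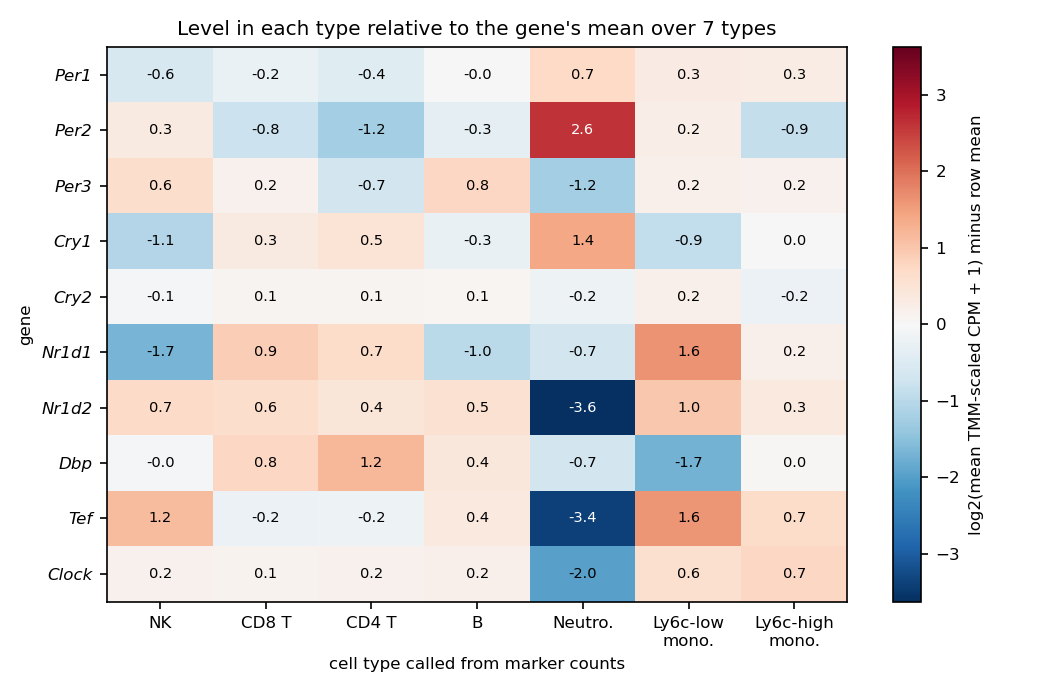
Colour and printed value give the log2 of the mean TMM-scaled CPM plus 1 of each gene (rows) in each type (columns), less that gene's mean over the 7 types. The neutrophil column holds the highest value of Per2 and Cry1 and the lowest of Nr1d2, Tef and Clock, and the Cry2 row stays between -0.22 and 0.18.

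Over the 10 members, 17 of 60 neighbours in the order of levels differed. That order was taken from the same levels, and the share over all genes was not computed. Platelets, small cell fragments without a nucleus, were too shallow for a level. They held 3 UMIs of all members together in 350388 UMIs, and 7 members had none. A count of 0 there allows up to 8.56 CPM (3 counts over the pooled platelets), which is below the leukocyte levels of Per1 and Nr1d2 outside neutrophils but not below those of Per3.

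Neutrophils were compared with the mean of both monocyte types, the other phagocytes of blood. Per2, Cry1 and Per1 were higher, and Tef, Nr1d2, Clock, Per3 and Nr1d1 were lower. This is 8 of 10 members called by edgeR's quasi-likelihood test, where 74% of all genes tested were called (36.6% higher and 37.4% lower). The members' share is thus near that of all genes, and their sizes are what follows. Per2 had 90.02 to 125 CPM in neutrophils, against 5.84 to 22.0 CPM in monocytes, a log2 difference of 3.23 ± 0.17 (SE, adjusted p = 4.08e-24). Cry1 had 72.3 to 92.8 CPM in neutrophils, against 7.32 to 32.0 CPM in monocytes (1.76 ± 0.15, adjusted p = 4.30e-15). Neither gene's groups overlapped.

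Of the lower genes, 3 rested on clear gaps. Tef had 1.31 to 2.93 CPM in neutrophils, against 40.3 to 103 CPM in monocytes (log2 difference -4.87 ± 0.28, adjusted p = 8.47e-22). Nr1d2 had 1.31 to 2.20 CPM in neutrophils, against 38.4 to 72.4 CPM in monocytes (-4.74 ± 0.28, adjusted p = 3.12e-21). The sizes of both genes moved with the choice of cells, and the cause was not tested. Nr1d2 was at -3.39 with a calling ratio of 2 and at -6.55 with a ratio of 8, and Tef at -3.89 with a ratio of 2. Without the 5% of cells with most UMIs, Nr1d2 was at -6.53 and Tef at -5.49. Clock had 1.31 to 5.87 CPM in neutrophils, against 18.2 to 35.7 CPM in monocytes (-2.56 ± 0.30, adjusted p = 6.74e-11). Of its 19 neutrophil UMIs 16 are in replicate 1, without which the value was -3.58 (adjusted p = 9.32e-07). In all 3 genes every neutrophil value lay under every monocyte value. Per3 (-2.24 ± 0.65, adjusted p = 0.00199) and Nr1d1 (-2.00 ± 0.55, adjusted p = 0.00107) were lower from 4 and 8 neutrophil UMIs, and the Nr1d1 call was lost without replicate 1 (-1.66, adjusted p = 0.0916), while its value was -2.95 without replicate 2.

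Per1 was the smallest of the calls, at 0.57 ± 0.11 (adjusted p = 3.55e-05), with 115 to 138 CPM in neutrophils and 74.2 to 134 CPM in monocytes. The groups overlapped, neutrophils were higher in 2 of 3 libraries, and without replicate 1 the call was lost (0.30, adjusted p = 0.114). Its sign follows the scaling: it was 0.11 with DESeq2 size factors (adjusted p = 0.366) and -0.36 with plain totals (adjusted p = 0.00303). The median of all genes moved with the scaling as well, and stood at -0.02 by TMM, -0.47 by the size factors of DESeq2 and -0.94 by plain totals. Among the called genes 49.4%, 33.9% and 20.9% were higher in neutrophils by these 3 scalings. Relative to that median Per1 was 0.58 to 0.59 higher in neutrophils under all 3, Per2 3.24 to 3.25 and Cry1 1.77 to 1.78. Changing the scaling shifts all genes of a comparison by nearly the same amount. The closeness of these ranges thus follows from the arithmetic and is no check on a call. On the same measure Tef was at -4.86 to -4.85, Nr1d2 at -4.73 to -4.72, Cry2 at -0.13 to -0.12 and Dbp at -0.03 to -0.01. Cry2 and Dbp were not called with TMM and were called lower in neutrophils with plain totals (-1.07 and -0.96). Cry2 was also called lower with DESeq2 size factors (-0.60, adjusted p = 0.0139) and by the DESeq2 Wald test (-0.60, adjusted p = 0.0209).

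**Figure D3:**
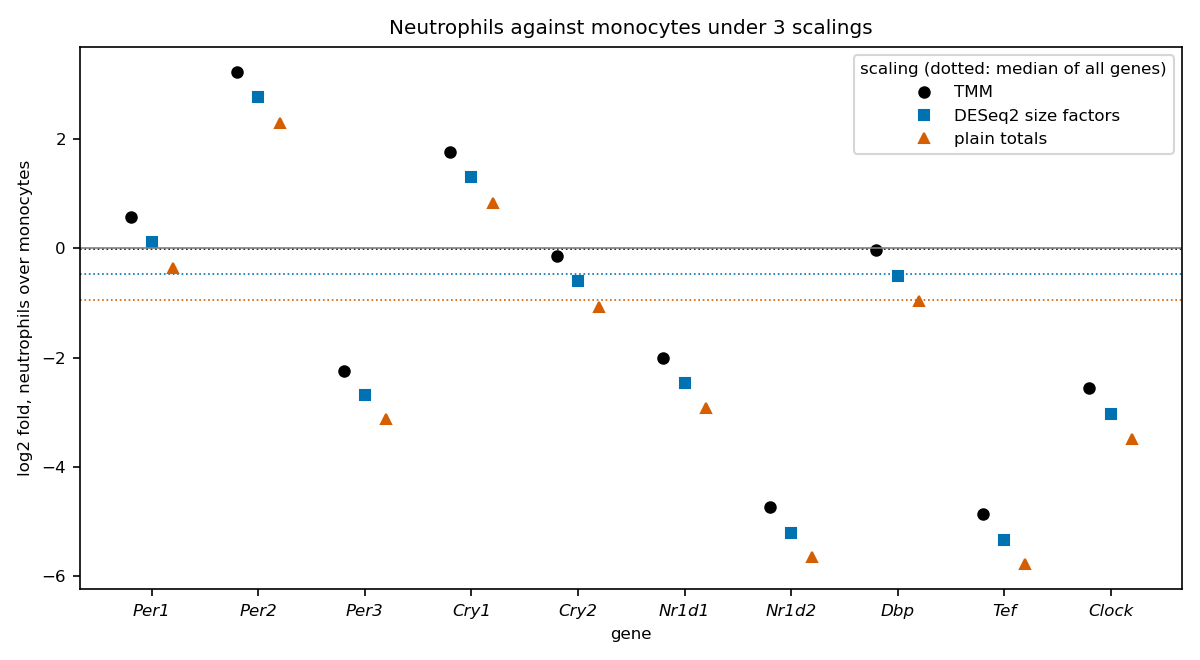
Log2 difference of neutrophils over monocytes (y axis) for each member (x axis) under TMM, DESeq2 size factors and plain library totals, with dotted lines at the median of all genes for each. Per2 and Cry1 stay above 0 and Per3, Nr1d1, Nr1d2, Tef and Clock below it under all 3, while Per1 is at 0.57 with TMM and at -0.36 with plain totals.

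Other genes of the clock were read as a list, of which 11 of 18 were expressed enough to test. In neutrophils against monocytes 6 were higher and 3 lower, with a list median of 0.86 where all genes had -0.02. Csnk1e, a kinase that marks PER proteins for destruction, was higher at 479 ± 15.8 CPM in neutrophils, against 92.7 ± 26.0 CPM in Ly6c-low and 114 ± 19.2 CPM in Ly6c-high monocytes (log2 2.21). Wee1, a cell cycle kinase under clock control, was also called higher, from 9 neutrophil and 5 monocyte UMIs, too few for a fold. Arntl was lower (-2.72). So was Rora, an activator of Arntl, with 1 UMI in neutrophils against 69 in monocytes, a pooled ratio of 0.0309 with an exact 95% interval of 0.000772 to 0.178.

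Signals that act on Per1 outside the clock were read beside it. The immediate-early list (Fos, Junb, Egr1, Ier2, Dusp1) summed to 3175 to 4612 plain CPM in neutrophils, against 562 to 845 in Ly6c-low and 657 to 977 in Ly6c-high monocytes, and 4 of its 5 genes were called higher in neutrophils. The glucocorticoid list (Fkbp5, Tsc22d3, Sgk1, Zbtb16, Klf9) summed to 1263 to 1496 plain CPM in neutrophils, against 734 to 1106 in Ly6c-low and 465 to 705 in Ly6c-high monocytes, with 3 genes higher and 1, Klf9, lower. In B cells the lists summed to 249 to 320 and 743 to 1001 plain CPM. The part of these signals in the level of Per1 was not tested. The median neutrophil held 2668 to 2826 UMIs by library, against 4332 to 4929.5 in Ly6c-low and 8070 to 9327 in Ly6c-high monocytes. Summed over libraries, neutrophils held 7581727 UMIs, more than the 3403864 of Ly6c-low monocytes. Nr1d2 had 8 UMIs in neutrophils against 246 in Ly6c-low monocytes, and Tef 10 against 351. The 5 markers that define neutrophils summed to 190 to 264 plain CPM in Ly6c-high monocytes, and to 12260 to 14630 in neutrophils. In the other direction, the 9 monocyte markers summed to 410 to 472 plain CPM in neutrophils. They summed to 10540 to 11650 in Ly6c-high and 11230 to 12000 in Ly6c-low monocytes. Whether the few neutrophil UMIs of Nr1d2 and Tef come from monocyte transcripts was not tested.

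Lymphoid cells (the mean of B, CD4 T, CD8 T and NK) were set against myeloid cells (the mean of neutrophils and both monocyte types). Nr1d2, Dbp, Tef and Clock were higher, Per1, Per2 and Cry1 were lower, and Per3, Cry2 and Nr1d1 were not called. This makes 7 of 10 members, beside 80.5% of all genes (45.2% higher and 35.4% lower). Dbp stood at 14.2 to 45.0 CPM in lymphoid and 0 to 21.6 CPM in myeloid types, with a log2 difference of 1.36 ± 0.15 (SE, adjusted p = 3.95e-12). Nr1d2 differed by 1.52 ± 0.13 (adjusted p = 4.59e-16) and Per2 by -1.07 ± 0.15 (adjusted p = 3.30e-09). Neither difference held for every myeloid type. Nr1d2 was highest in Ly6c-low monocytes (62.65 CPM), with lymphoid types at 42.9 to 50.9, Ly6c-high monocytes at 40.1 and neutrophils at 1.63. Per2 had 110 CPM in neutrophils but 8.98 in Ly6c-high monocytes, below the 13.6 of B and 21.95 of NK cells.

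The contrast averages the log levels of the types, so a single low type weighs heavily. Tef was called higher in lymphoid cells by 0.70 (adjusted p = 3.50e-05) although its plain average was 38.4 CPM in lymphoid and 46.3 CPM in myeloid types, since neutrophils had 1.87. Clock likewise was called at 0.34 (adjusted p = 0.0312) with averages of 17.95 CPM in lymphoid and 18.2 CPM in myeloid types, and the call was lost without any one replicate (adjusted p = 0.0509, 0.183 and 0.0792 without replicates 1, 2 and 3). In each of the 10 members the ranges of the groups overlapped. Per1 was at -0.66 (adjusted p = 5.53e-10) with TMM and at -0.07 with plain totals, where it was not called (adjusted p = 0.321). Per2 was at -0.48 with plain totals, Dbp at 1.95, Tef at 1.28 and Clock at 0.93. Nr1d2 was at 2.12 with a calling ratio of 8 and at 2.18 without the 5% of cells with most UMIs. Across genes the median difference was 0.17 by TMM, 0.51 by the size factors of DESeq2 and 0.76 by plain totals. Cry1 changed sign with it, being -0.34 (adjusted p = 0.00310) with TMM, not called with DESeq2 size factors and 0.24 (adjusted p = 0.0250) with plain totals. Relative to the median Cry1 was -0.51 under all 3, an agreement that again follows from the arithmetic. Without replicate 1 it was no longer called (-0.31, adjusted p = 0.190), while Nr1d1 became so (-2.08, adjusted p = 0.0349, against -0.50 and 0.153 with all libraries). Per3 and Cry2, not called with TMM, were called higher with DESeq2 size factors (0.97, adjusted p = 0.00256, and 0.55, adjusted p = 4.19e-05). The same held with plain totals (1.21 and 0.80) and by the DESeq2 Wald test (1.02 and 0.55). Per3 was also called with a calling ratio of 8 (adjusted p = 0.0481), and Cry2 with a ratio of 2 (adjusted p = 0.0294). Of the wider clock list 5 were higher, 5 lower and 1 not called. Timeless (2.50) and Wee1 (with 0 UMIs in Ly6c-low monocytes) had the highest differences, and Nfil3, a repressor at D-boxes (-3.58), and Csnk1e (-2.44) lowest.

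Within monocytes, Ly6c-low cells were set against Ly6c-high cells, from which they arise in mice. Per2, Nr1d1, Tef and Nr1d2 were higher, Dbp and Cry1 lower, and Per1, Per3, Cry2 and Clock not called. These 6 of 10 stand beside 35.1% of all genes called (16.3% higher and 18.8% lower). The PAR bZIP genes thus ran in opposite directions, and so did the repressors Per2 and Cry1.

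Tef had 103, 100 and 68.0 CPM in Ly6c-low monocytes, against 59.3, 40.3 and 40.9 CPM in Ly6c-high monocytes. The groups did not overlap, with a log2 difference of 0.89 ± 0.15 (SE, adjusted p = 3.41e-06). Dbp had 7.13, 0 and 5.66 CPM in Ly6c-low monocytes, against 16.6, 11.8 and 21.6 CPM in Ly6c-high monocytes (-1.45 ± 0.35, adjusted p = 0.000543). Both calls held under every alternative tried, but the size of Dbp was -2.33 (adjusted p = 0.0217) without replicate 1, where its Ly6c-low UMIs are 0 and 3.

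Per2 had 20.3, 22.0 and 18.9 CPM in Ly6c-low monocytes, against 5.84, 6.32 and 14.8 CPM in Ly6c-high monocytes (1.40 ± 0.31, adjusted p = 0.000261). Without replicate 1 the difference was 1.02 and no longer called (adjusted p = 0.183). Nr1d2 differed by 0.75 ± 0.15 (adjusted p = 6.43e-05), and by 0.49 without replicate 1 (adjusted p = 0.228). The groups of both genes did not overlap, and Ly6c-low cells were higher in 3 of 3 libraries. Nr1d1 differed by 1.47 ± 0.45 (adjusted p = 0.00739), and by 1.15 (adjusted p = 0.0623) without replicate 2. Cry1 differed by -0.63 ± 0.23 (adjusted p = 0.0286), by -1.32 without replicate 1 (adjusted p = 0.0202), and by -0.47 without replicate 2 (adjusted p = 0.147). The call was also lost without replicate 3 (-0.58, adjusted p = 0.0911) and with a calling ratio of 8 (-0.58, adjusted p = 0.0544).

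In the wider list 3 genes were higher and 2 lower in Ly6c-low monocytes. Bhlhe40, a transcriptional repressor that competes at E-boxes, stood out at 336 ± 54.6 CPM in Ly6c-low monocytes, against 14.4 ± 4.37 CPM in Ly6c-high monocytes (log2 4.50, adjusted p = 4.32e-22). Btrc, part of a ubiquitin ligase for PER proteins, was higher (0.87), Nfil3 lower (-1.13), and Timeless lower (-2.93) from 4 UMIs in Ly6c-low and 47 in Ly6c-high monocytes.

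CD4 T cells were compared with B cells, the most abundant type. Nr1d1, Cry1 and Dbp were higher and Per3, Per2, Tef and Per1 lower, while Cry2, Nr1d2 and Clock were not called. These 7 of 10 stand beside 56.6% of all genes (28.3% higher and 28.2% lower). No called member's groups overlapped, though overlap was not counted over all genes. All 7 calls held in every alternative in which the gene was tested (Per3 was too low to test without replicate 1).

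Nr1d1 had 7.84, 7.97 and 5.46 CPM in CD4 T cells, against 1.55, 1.94 and 1.34 CPM in B cells (log2 difference 2.14 ± 0.33, SE, adjusted p = 1.01e-07). Dbp had 40.7, 30.3 and 45.0 CPM in CD4 T cells, against 23.5, 19.4 and 22.7 CPM in B cells (0.82 ± 0.12, adjusted p = 7.48e-08). Cry1 differed by 0.83 ± 0.12 (adjusted p = 3.00e-08). The 3 period genes were all lower in CD4 T cells, Per1 by -0.44 ± 0.09 (adjusted p = 0.000138), Per2 by -1.05 ± 0.20 (adjusted p = 7.42e-06) and Per3 by -1.62 ± 0.33 (adjusted p = 3.04e-05). Tef was lower by -0.58 ± 0.13 (adjusted p = 9.31e-05).

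Of the wider list 3 were higher and 5 lower in CD4 T cells. Rora was at 26.0 ± 1.41 CPM in CD4 T cells, against 0.547 ± 0.182 CPM in B cells (log2 5.44), and Nfil3 was higher (1.39). Bhlhe41, the relative of Bhlhe40, had 1 UMI in CD4 T cells against 731 in B cells, a pooled ratio of 0.00485 with an exact 95% interval of 0.000123 to 0.0271. Bhlhe40 was lower (-1.49), and Arntl was lower (-0.35).

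CD8 T cells against CD4 T cells gave the fewest calls. Per2 was higher (0.64 ± 0.22, adjusted p = 0.0351) and Dbp lower (-0.44 ± 0.13, adjusted p = 0.0113) in CD8 T cells, and the other 8 members were not called, beside 19.4% of all genes called (9.74% higher and 9.63% lower). Without replicate 1 the values were 0.35 (adjusted p = 0.696) for Per2 and -0.51 (adjusted p = 0.109) for Dbp, and without replicate 3 they were 0.63 (0.0775) and -0.30 (0.220). Both calls were also lost by DESeq2 (0.109 and 0.0705), and that of Per2 without the replicate block (0.0819). Per2 had 12.1, 5.92 and 10.9 CPM in CD8 T cells, against 6.94, 6.37 and 6.82 CPM in CD4 T cells, and was higher in 2 of 3 libraries. Dbp had 31.2, 28.3 and 25.0 CPM in CD8 T cells, against 40.7, 30.3 and 45.0 CPM in CD4 T cells, and was lower in 3 of 3. In both genes the groups overlapped. In the wider list none was higher, and Rora (-0.74) and Csnk1e (-0.45) were lower.

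NK cells against CD8 T cells, the other cytotoxic lymphocytes, gave 5 of 10 members called beside 49.3% of all genes (23.4% higher and 25.9% lower). Tef and Per2 were higher in NK cells, and Nr1d1, Cry1 and Dbp lower. Tef had 70.0, 49.9 and 78.4 CPM in NK cells, against 28.5, 23.7 and 22.4 CPM in CD8 T cells (log2 difference 1.35 ± 0.15, SE, adjusted p = 7.77e-11). Cry1 had 20.7, 8.80 and 14.2 CPM in NK cells, against 40.0, 38.2 and 39.4 CPM in CD8 T cells (-1.18 ± 0.20, adjusted p = 2.01e-06), and the difference was -1.82 without replicate 1. For each of the 5 genes the groups did not overlap, a count not made over all genes.

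Per2 differed by 1.11 ± 0.23 (adjusted p = 5.27e-05). Nr1d1 differed by -2.86 ± 0.59 (adjusted p = 4.45e-05), from 5 NK and 166 CD8 T UMIs. All 5 NK UMIs are in replicate 1, and without it the fitted value was -7.38 against NK sums of 0, so that 1 library sets the size. Dbp differed by -0.90 ± 0.21 (adjusted p = 0.000339), a call lost without replicate 1 (-0.68, adjusted p = 0.185). In the wider list 5 genes were higher and 2 lower in NK cells. Bhlhe40 stood at 252 ± 12.6 CPM in NK cells, against 3.53 ± 1.96 CPM in CD8 T cells (log2 5.83), and Nfil3, which NK cells need for their development in mice, at 72.9 ± 15.03 CPM in NK cells, against 5.20 ± 1.19 CPM in CD8 T cells (3.79). Timeless (-1.64) and Arntl (-0.67) were lower.

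The median log2 difference of the 10 members can be set beside that of all genes. It was -1.07 in neutrophils against monocytes, where all genes had -0.02, and 0.28 in lymphoid against myeloid cells, where all genes had 0.17. It was 0.17 in Ly6c-low against Ly6c-high monocytes (all genes -0.02), -0.07 in CD4 T against B cells (-0.02), 0.10 in CD8 against CD4 T cells (0.00) and -0.06 in NK against CD8 T cells (-0.04). The medians of the wider clock list in the last 4 comparisons were -0.26, -0.05, -0.10 and 0.31, and 0.58 in lymphoid against myeloid cells. Members moved in both directions in each comparison, so these medians describe no common shift.

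The 3 samples agreed to different degrees by gene. Of 70 values (10 members in 7 types), 39 rested on at least 100 pooled UMIs. Of the 66 for which a counting error could be computed, the coefficient of variation over the replicates was above that expected from counting alone in 36 and above 2 times it in 4. These 4 were Per1 in Ly6c-low monocytes (33.3% against 12.9% from counting), Per1 in Ly6c-high monocytes (30.4% against 8.82%), Cry1 in CD4 T cells (19.2% against 9.57%) and Tef in B cells (12.96% against 4.50%). Replicate 2 gave the lowest value in 42 of the 70 and replicate 1 in 5, while replicate 1 gave the highest in 35, replicate 3 in 25 and replicate 2 in 10. The libraries differ in depth, age, red cell transcripts and the share of barcodes named, and these cannot be told apart from the replicate.

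The highest type was the same in all 3 libraries for 5 members (Per2 and Cry1 in neutrophils, Nr1d1 and Nr1d2 in Ly6c-low monocytes, Dbp in CD4 T cells). The lowest type was the same for 5 (Per3, Nr1d2, Tef and Clock in neutrophils, Dbp in Ly6c-low monocytes). The order of the 7 types had a Spearman correlation between pairs of libraries of at least 0.89 for Cry1, Dbp and Tef. For Cry2 the lowest such value was -0.39, and for Clock, whose types other than neutrophils are close together, it was 0.46. These correlations are over 7 types and describe the agreement of the orders only.

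**Figure D4:**
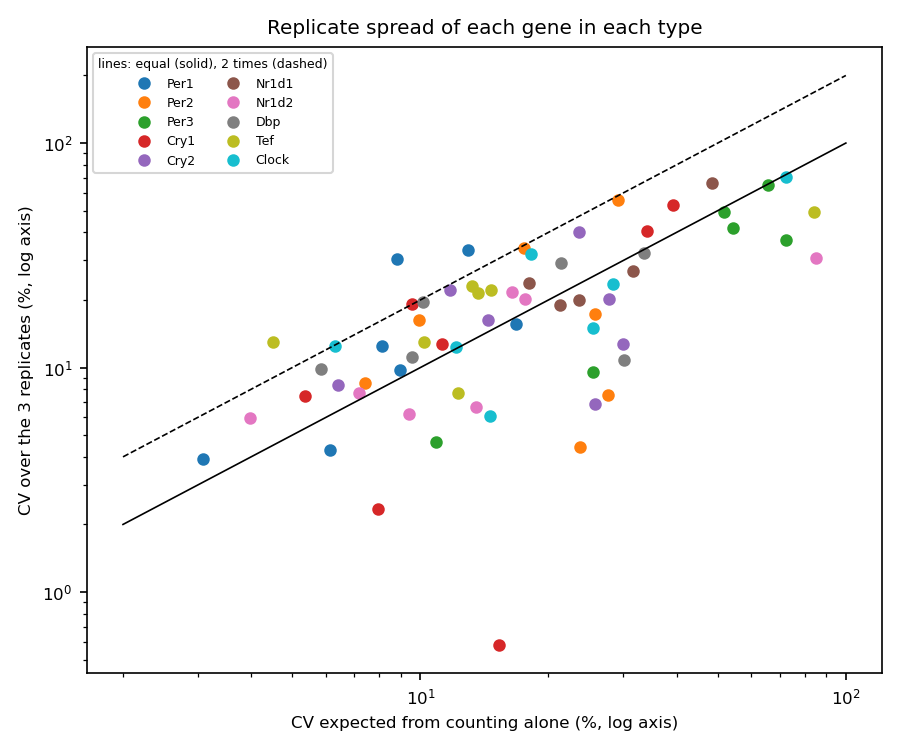
Coefficient of variation over the 3 replicates (y axis, %, log) against the one expected from counting alone (x axis, %, log), with 1 point per gene and type for 66 of 70 values, and lines at equality (solid) and at 2 times it (dashed). Of these points 4 lie above the dashed line, among them Per1 in both monocyte types.

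Members were also compared with each other over the 21 sums of 7 types in 3 libraries, as Pearson correlations of log2(CPM + 1). Nr1d2 and Tef had r = 0.93, Nr1d2 and Clock 0.91, and Tef and Clock 0.90. Per2 had r = -0.81 to Nr1d2, -0.80 to Clock and -0.63 to Tef, and Cry1 had r = -0.82 to Tef. Most of these rest on the neutrophils. Over the 18 sums without them, a set chosen after seeing the data, Per2 had r = 0.59 to Nr1d2, 0.72 to Tef and -0.09 to Clock. Nr1d2 then had r = 0.51 to Tef and -0.13 to Clock, Tef and Clock had 0.44, and Cry1 and Tef had -0.74. Over all 21 sums Dbp and Tef had r = -0.12, and Nr1d1 and Nr1d2 had r = 0.33. The sums share libraries, depth and a scaling.

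Among 8756 other genes with a mean of at least 10 CPM, those most like a member were named by the highest r over 24 sums, platelets included. Nr1d2 was most like Timm50 (r = 0.99), Ddx1 (0.99) and Timm22 (0.99), and without platelets these had r = 0.97 to 0.98 over 21 sums. Tef was most like Pycrl, Chst14 and Phf11b (0.97, 0.97 and 0.96, or 0.92 to 0.93 without platelets). Clock was most like Timm17a, Nfs1 and Tsnax (each 0.96, or 0.91 to 0.92 without platelets). Per2 was most like Dgat1, Lcp1 and Btbd10 (0.96, 0.96 and 0.95, or 0.87 to 0.91 without platelets), and Cry1 like Setd7, Mblac2 and Atrn (each 0.97, or 0.84 to 0.85 without platelets). The drop without platelets was larger for Per1 and Cry2. Per1 had 0.99 to Eif4enif1, Spg11 and Arl6ip6, and 0.76 to 0.78 without platelets. Cry2 had 0.99 to Kansl3, Pom121 and Dido1, and 0.59 to 0.67 without them. Per3 had 0.90 to Tmem39b, 0.87 to Tamm41 and 0.86 to Txndc5, and 0.74 to 0.85 without them. Dbp was most like Ttll5, Hmgb3 and Cmc4 (0.94, 0.92 and 0.91, or 0.84 to 0.87 without platelets). Nr1d1 was most like Mthfd2, Tgfbr3 and Ext1 (0.84, 0.80 and 0.74, or 0.86, 0.77 and 0.69 without platelets). None of these correlations with other genes was computed without neutrophils, so how far they rest on that type was not tested.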

How the data were processed

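The deposited files are raw gene by barcode matrices of whole-number UMI counts, made by the authors with a probe-based fixed-RNA kit and, per the submitters' processing notes, Cell Ranger 7.1.0. The sources used here give neither probe set nor genome build. Cells, sorted as nucleated and viable after red cell lysis per the labels, were assigned to types from raw marker counts with 49 genes. No doublet caller was run. Cells whose highest list was under 4 times another stayed uncalled (706, 163 and 251 cells in replicates 1, 2 and 3). Called cells could still hold UMIs of other lists. Counts were summed over 8 types with at least 20 cells in every library (24 sums) and fitted with edgeR 4.0.16 in R 4.3.3 (TMM, filterByExpr with a minimum count of 10, quasi-likelihood test, library as block, since all types of a library come from 1 sample). Benjamini-Hochberg adjusted p-values below 0.05 over all 10420 genes tested were called. Tested on simulated data for CD4 T against B cells (10270 genes), the fit recovered 87.6% of genes changed 2-fold and 89.8% of those changed 4-fold. That simulation changed 100 genes at each fold in otherwise equal profiles. It does not cover comparisons in which most genes differ, such as neutrophils against monocytes, where 74% were called.

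Levels are shares of a type's UMIs in a library, scaled to CPM and divided by the TMM factor. The smallest sums held 77 Ly6c-low monocytes, 89 NK cells, 107 Ly6c-high monocytes and 32 platelets. Intervals and limits from counts of 0 (3 counts) cover counting error only. The named genes are the 10 members, the 2 highest and 2 lowest called genes of the wider clock list in each comparison, and the 3 genes most like each member. Members, lists and tests were chosen with earlier results of these data known. Other scalings, cell calling ratios, tests and left-out libraries were tried as alternatives. DESeq2 1.42.0 served as one of them.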

Additional observations from a re-analysis of the deposited data

Results flagged for a closer look

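Dendritic cells and basophils were too few for the tests, with 31 and 65 cells over the 3 libraries. Pooled values of several members there were above the limit that a count of 0 allows, which is 10.7 plain CPM in dendritic cells and 13.5 in basophils. Dendritic cells held Per1 at 85.5 plain CPM (exact 95% Poisson interval 54.8 to 127), Tef at 46.3 (24.7 to 79.2), Cry1 at 39.2 (19.6 to 70.1) and Clock at 32.1 (14.7 to 60.9). Per2 was at 17.8 from 5 UMIs, all in replicate 1, and its interval of 5.79 to 41.6 reaches below the limit.

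Basophils held Tef at 117 plain CPM (76.2 to 171), Per1 at 71.8 (41.0 to 116), Per2 at 53.8 (27.8 to 94.0), and Cry2 and Dbp each at 40.4 (18.4 to 76.6). Cry1 at 22.4 (7.28 to 52.3) and Nr1d2 at 17.9 (4.89 to 45.9) had intervals that reach below the limit, and the 4 UMIs of Nr1d2 are all in replicate 1. The intervals cover counting error only, and no difference from another type was tested.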

How the results depend on the processing

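Of 35 member calls in the 6 comparisons, 23 held under every one of the 14 alternatives in which the gene was tested. The share of calls that hold was not computed over all genes. Of 834 member results under the alternatives, 28 lost a call, 14 gained one and 2 reversed. Among the gains, Per1 was called lower in NK than in CD8 T cells with DESeq2 size factors (-0.35, adjusted p = 0.0256). With plain library totals, Cry1 in lymphoid against myeloid cells reversed to 0.24 and Per1 in neutrophils against monocytes to -0.36. In lymphoid against myeloid cells plain totals gave 2186 genes lower (3686 with TMM), 7 members higher and 1 lower. In neutrophils against monocytes they gave 1740 genes higher and 6601 lower (3811 and 3898 with TMM) and 8 members lower. In CD8 against CD4 T cells, 0 members were higher without the replicate block, without the 5% of cells with most UMIs and with DESeq2, which also called 0 lower. Without the replicate block the Clock call in lymphoid against myeloid cells was lost as well (0.33, adjusted p = 0.0547), and no other member call changed. A calling ratio of 8 left 1 member lower in Ly6c-low against Ly6c-high monocytes.

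Leaving out each library in turn gave 3 to 5 members lower in neutrophils against monocytes. In Ly6c-low against Ly6c-high monocytes it gave 1007 to 1523 genes higher, 1068 to 1736 lower, 2 to 4 members higher and 1 to 2 lower. In CD8 against CD4 T cells it gave 656 to 882 genes higher, 585 to 841 lower, 0 to 1 member higher and 0 to 1 lower, and in NK against CD8 T cells 1688 to 2493 genes lower. The cause was not tested. Leaving platelets out of the fit, chosen after seeing the data, changed no member call. The neutrophil levels of Per3, Nr1d1, Nr1d2, Tef and Clock rest on 4 to 19 UMIs, which limits their precision.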
